A study of Mus musculus with 2 samples.

Results

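The genes of MHC class II antigen presentation were examined in Tregs from spleen and lung of BLM-treated mice. The 10 members were taken by symbol from the list of 24346 symbols measured in both libraries, and all 10 were listed. They are the chains of the classical class II molecules (H2-Aa, H2-Ab1, H2-Eb1), the invariant chain (Cd74), the peptide-exchange factor DM (H2-DMa, H2-DMb1, H2-DMb2), its inhibitor DO (H2-Oa, H2-Ob) and the class II transactivator (Ciita). FDG mice (genotype Foxp3-DTR-GFP), which carry GFP as a reporter under the endogenous Foxp3 locus, received 50 μg BLM intratracheally at 10 to 16 weeks of age. GFP+CD4+ cells were collected on day 15, and cells of 3 mice were pooled into 1 splenic and 1 lung library. Both groups therefore share the reporter allele and the BLM treatment, and neither is from untreated mice. The strain background of the FDG mice and any lineage gate beyond GFP and CD4 for this sort are not given in the sources used here.

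Class II molecules are pairs of an alpha and a beta chain that show peptides from endosomes to CD4+ T cells. The invariant chain occupies the groove until endosomal proteases degrade it, DM then exchanges its last fragment for antigenic peptide, and DO, made mainly by B cells, holds DM back. Transcription of most of these genes depends on Ciita, a coactivator that binds no DNA itself and is recruited by factors at the X and Y boxes of their promoters. In mice, B cells, dendritic cells and macrophages express the pathway strongly, alveolar type 2 cells express it too, and T cells are generally regarded as negative for it.

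With 1 library per tissue, no difference below has a replicate check and no test was possible. The values are the FPKM deposited by the authors, that is, fragment numbers adjusted for exon length and for the size of the library. Ratios are lung over spleen after raising values under 0.1 FPKM to 0.1, and a fold of 2 served as a rule of size. The FPKM summed to 599633 for spleen and 808853 for lung. Read numbers estimated from FPKM and transcript length, 9647408 and 12631376 in sum, gave 95% counting intervals. These treat each read as a separate molecule and cover no error but that of counting. PCR copies cannot be told from separate molecules, so the intervals may be too narrow even for that. Foxp3 stood at 18.7 FPKM in spleen and 41.8 in lung, and Cd4 was at 195 and 179. The 6 Treg markers did not share a direction, 3 being higher and 3 lower in lung. Ctla4, at 221 and 601 FPKM, and Tnfrsf18, at 470.4 and 919, were higher like Foxp3, whereas Lrrc32, at 69.4 and 30.4, and Il2ra, at 89.4 and 59.1, were lower and Ikzf2, at 42.0 and 41.6, was near equality. Over the 8 T cell markers the median log2 ratio was -0.07.

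The promoter letters are shown because they are the shared feature through which these genes are known to be controlled. Of the 10 members, 7 had RefSeq promoter windows (GRCm38.p6, the assembly of mm10), and H2-Ab1, Cd74 and Ciita had no entry. These were 8 windows, since H2-DMa had 2. The letters GATTGG, the core of the Y box, were sought on either strand in the 250 bases before the RefSeq start. They stood in 7 of the 8 windows, against 14.6% of 32851 promoter windows, and in at least 1 window of each of the 7 genes. The letters AAC, the end of the first part of the X box, preceded GATTGG by 20 to 30 bases in 6 of the 8. Those windows belonged to 6 of the 7 genes, and 1.87% of all windows had the pair. H2-DMa was the exception, and the spacing was chosen after the windows had been read. In the sequences, capitals mark AAC, the letters TGATGC or TGACGTCA wherever present, and GATTGG. Right after AAC these are the X2 letters, whereas the further TGATGC of H2-Eb1 lies beside GATTGG and is not at that place.
H2-Aa, chr17:34287857-34287912, minus strand: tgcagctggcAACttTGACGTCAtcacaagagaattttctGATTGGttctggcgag
H2-Eb1, chr17:34305768-34305822, plus strand: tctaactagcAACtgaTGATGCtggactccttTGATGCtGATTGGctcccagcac
H2-DMb2, chr17:34145118-34145173, plus strand: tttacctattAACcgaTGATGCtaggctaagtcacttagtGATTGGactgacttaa
H2-Oa, chr17:34092295-34092350, plus strand: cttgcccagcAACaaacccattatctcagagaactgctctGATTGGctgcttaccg
H2-Ob, chr17:34238810-34238862, plus strand: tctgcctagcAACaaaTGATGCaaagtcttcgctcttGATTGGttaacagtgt
GATTGG began between 44 and 91 bases before the RefSeq start in these 5 windows. H2-DMb1 had the same pair at 62 bases, but all 56 bases of its stretch lie in GENCODE exons, so it is not printed. Of the H2-Oa stretch, 11 bases lie in such exons. The H2-DMb2 stretch lies outside GENCODE exons but within the GENCODE span of that gene, which starts at 34143307. The pair of AAC and GATTGG thus stood before the RefSeq starts of genes that were higher in lung (H2-Aa, H2-Eb1), lower in lung (H2-Ob) and near equality (H2-DMb2, H2-Oa). A match of letters is a description and no evidence of binding.

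The members did not differ between the tissues in 1 direction. The classical chains and H2-DMb1 were more than 2-fold higher in lung, Cd74 was just under that fold, H2-DMa, H2-DMb2 and H2-Oa were near equality, and H2-Ob and Ciita were more than 2-fold lower. In counts, 4 of 10 members were over 2-fold higher, against 17.8% of the 12094 genes that reached 1 FPKM in either library, and 2 of 10 were over 2-fold lower, against 15.5%. None was over 20-fold higher, a fold that 1.62% of all symbols passed, and none was over 20-fold lower, against 1.17%. The median log2 ratio of the members was 0.57, against 0.03 over the 12094 genes. Together they made up 0.401% of the FPKM sum in spleen and 0.606% in lung.

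**Figure D1:**
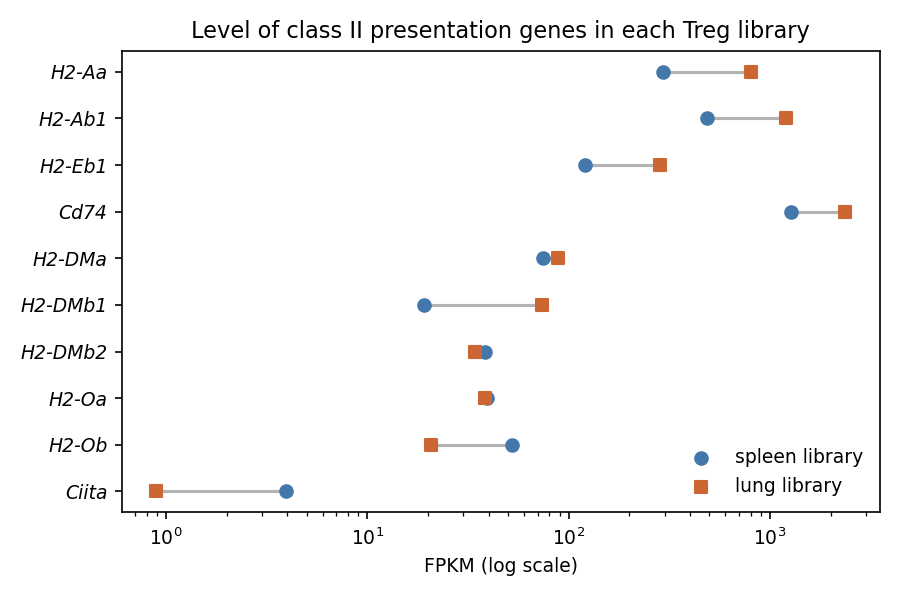
FPKM of the 10 members (log axis) in the splenic library (blue circles) and the lung library (orange squares), 1 library per tissue. Cd74 and the 3 classical chains lie highest in both and are higher in lung, whereas Ciita lies lowest in both, at 3.96 in spleen and 0.896 in lung.

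The classical chains were among the abundant transcripts of both libraries. H2-Ab1, the beta chain of I-A, lies on chromosome 17 from 34257689 to 34269419 and stood at 486 FPKM in spleen and 1195 in lung, a log2 ratio of 1.30 with a counting interval of 1.25 to 1.35. H2-Aa, the alpha chain of I-A, lies from 34282744 to 34287823 on the opposite strand and was at 294 and 803 FPKM, a log2 ratio of 1.45 (1.39 to 1.51). H2-Eb1, the beta chain of I-E, lies from 34305867 to 34316674 and was at 120.0 and 283 FPKM, a log2 ratio of 1.23 (1.16 to 1.31). All 3 chains were thus higher in lung by similar folds, 2.73 for H2-Aa, 2.46 for H2-Ab1 and 2.35 for H2-Eb1. H2-Ab1 ranked 185 by FPKM among all symbols in spleen and 102 in lung. The counting intervals of all 3 lay above a fold of 2. When both libraries were rescaled to TPM, which lowered every lung ratio by 0.43 on the log2 scale, H2-Ab1 and H2-Eb1 came to 0.87 and 0.80 and only H2-Aa stayed above 2-fold, at 1.02. The proportions of the chains to each other do not depend on such scaling. H2-Aa was at 0.605 of H2-Ab1 in spleen and 0.672 in lung, and H2-Eb1 was at 0.247 and 0.236 of it.

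Further class II loci had low values. H2-Eb2, a beta chain gene beside H2-Eb1, stood at 0.851 FPKM in spleen and 3.0 in lung, on about 28 and 112 reads. H2-Ea-ps, the alpha chain locus of I-E, which mice of the H2-b haplotype such as C57BL/6 do not express because its promoter is deleted, was listed at 0 in both libraries.

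Cd74, the invariant chain, was the most abundant member in both tissues. It lies on chromosome 18 from 60803848 to 60812652 and stood at 1278 FPKM in spleen and 2366 in lung, on about 14686 and 30862 reads. Its log2 ratio of 0.89 (counting interval 0.86 to 0.92) was below those of the 3 chains, and the intervals did not overlap. Accordingly, Cd74 was at 2.63 times H2-Ab1 in spleen and 1.98 times in lung. Relative to the sum of the 3 chains it was at 1.42 in spleen and 1.04 in lung. The excess of invariant chain over classical chains was therefore smaller in the lung library, by a factor that no scaling between libraries changes.

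The DM genes, which encode the peptide-exchange factor, split. H2-DMa, the only alpha chain, lies on chromosome 17 from 34119541 to 34139101 and stood at 74.2 FPKM in spleen and 88.4 in lung. Its log2 ratio of 0.25 (0.14 to 0.36) became -0.18 with TPM, so its direction depends on the scaling. H2-DMb1, from 34153072 to 34160230, was at 19.1 and 73.5 FPKM, a log2 ratio of 1.94 (1.74 to 2.15) and the highest of any member. Its neighbour H2-DMb2, from 34143307 to 34151555, was at 38.2 and 34.3 FPKM, a log2 ratio of -0.16 (-0.34 to 0.03), and its counting interval included equality. These adjacent beta chain genes are close copies. H2-DMb1 was thus at 0.50 of H2-DMb2 in spleen and 2.15 times it in lung. Of the 1330 windows of 75 bases, the read length, in the H2-DMb1 transcript, 254 (19.1%) were identical in H2-DMb2, so part of their reads could not be assigned to one of them by sequence. How the counting treated such reads is not given in the sources used here. Their summed FPKM was 57.3 in spleen and 107.8 in lung, a log2 ratio of 0.91, and H2-DMa came to 1.29 times that sum in spleen and 0.820 in lung. No window of the other 8 members occurred in a transcript of another gene.

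The DO genes, which encode the DM inhibitor, differed from each other as well. H2-Oa, the alpha chain, lies on chromosome 17 from 34092340 to 34095234 and stood at 39.3 FPKM in spleen and 38.3 in lung. Its log2 ratio was -0.04 (-0.25 to 0.17), and the sign turned to 0.03 when the T cell genes were set to equality. H2-Ob, the beta chain, lies from 34238903 to 34254414 and was at 52.2 and 20.7 FPKM, a log2 ratio of -1.33 (-1.48 to -1.19). H2-Ob exceeded H2-Oa in spleen, where H2-Oa was at 0.754 of it, and was below it in lung, where H2-Oa was at 1.85 times H2-Ob. Summed over their chains, DO was at 0.696 of DM in spleen and 0.301 in lung. H2-Ob remained more than 2-fold lower under each of the 9 other settings tried.

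Ciita, the transactivator, had the lowest level and the lowest ratio among the members. It lies on chromosome 16 from 10480059 to 10528418 and stood at 3.96 FPKM in spleen and 0.896 in lung, on about 168 and 43 reads. Its log2 ratio was -2.14 (-2.67 to -1.66), and it stayed between -2.58 and -1.39 under the settings tried. Ciita thus differed in the direction opposite to the classical chains. Per unit of H2-Ab1, Ciita was at 0.00814 in spleen and 0.000749 in lung, 10.9-fold lower. Its 4 transcripts range from 3953 to 6007 nt, so its read numbers are approximate.

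**Figure D2:**
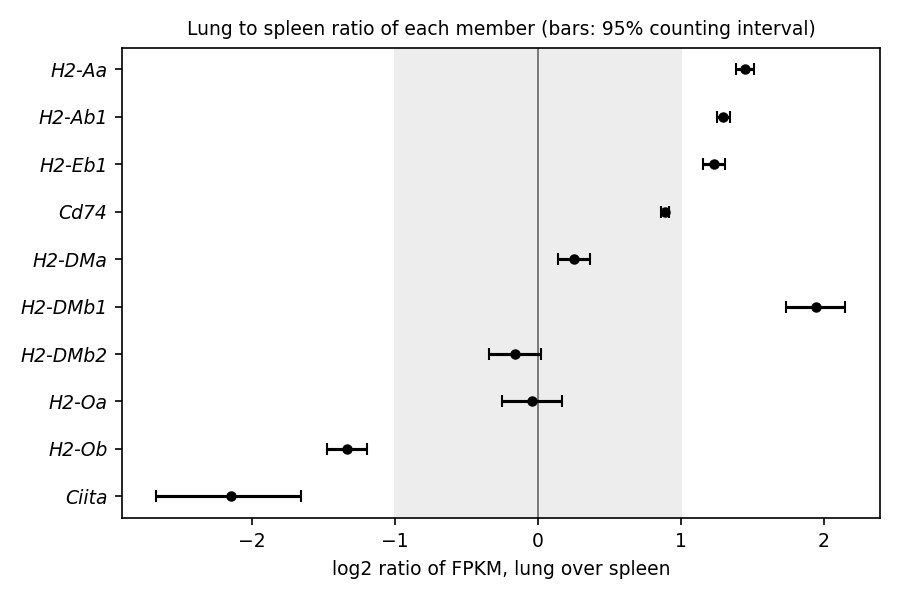
Log2 ratio of lung over spleen FPKM for each member, with bars for the 95% counting interval from estimated reads and the range within 2-fold shaded. Of the 10 members, 4 lie right of the shading, 2 lie left of it and 4 lie inside, and the bars do not include variation between mice.

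Neighbouring genes of the class II region differed in direction. The class II region on chromosome 17, from the start of H2-Oa at 34092340 to the end of H2-Eb2 at 34341412, holds 14 listed genes over 249 kb, of which 8 are members. The peptide transporter and immunoproteasome genes of the class I route lie between H2-DMb1 and H2-Ob. In this interval Psmb9 stood at 379 FPKM in spleen and 496 in lung, Psmb8 at 744 and 729, Tap1 at 145 and 106, and Tap2 at 106 and 77.7. None of these 4 differed by 2-fold, whereas H2-DMb1 on one side was higher in lung and H2-Ob on the other was lower. H2-Ob and H2-Ab1, direct neighbours, lay at -1.33 and 1.30. Among the 6 genes of the region that are no members, the median log2 ratio was -0.24, and only H2-Eb2 was over 2-fold higher. The cDNA method marks no strand, and H2-DMa overlaps Brd2, H2-Eb1 overlaps Gm20513, H2-Oa overlaps BC051537, Ciita overlaps Dexi and Cd74 holds Mir5107, so reads in these overlaps cannot be assigned by strand.

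**Figure D3:**
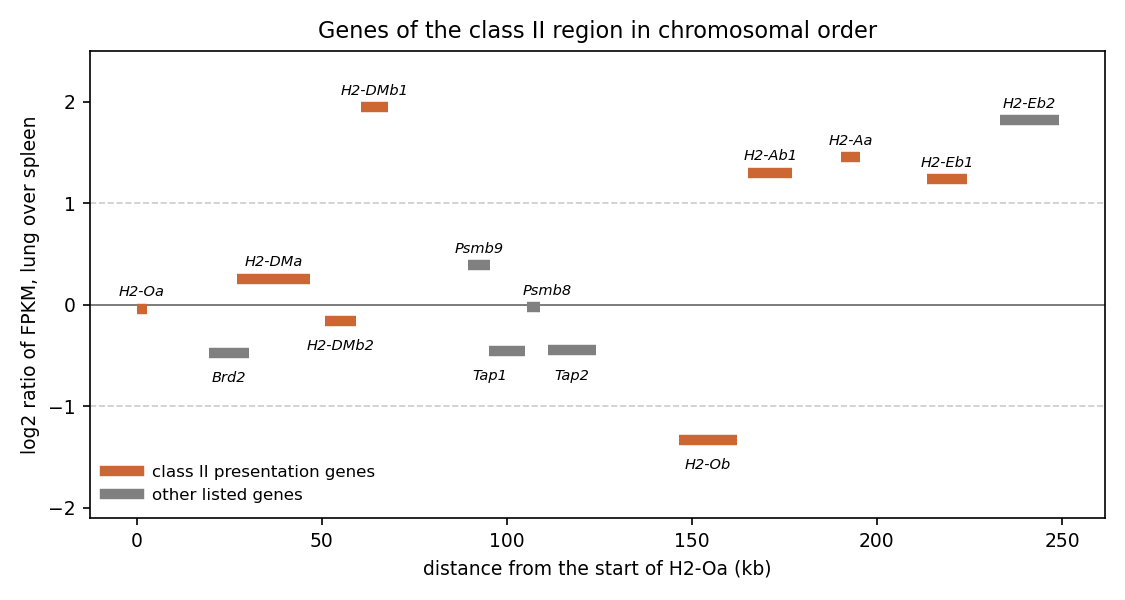
Log2 ratio of lung over spleen FPKM (vertical axis) against distance from the start of H2-Oa in kb for the 14 listed genes of the class II region, each bar spanning the gene, orange for members and grey for other genes. The grey Psmb and Tap genes near 100 kb lie between -0.45 and 0.39, while orange genes on both sides reach 1.94 and -1.33.

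Of 30 other genes of the class II pathway, 29 reached 1 FPKM in either library. In this list 12 were over 2-fold higher in lung and 1 was over 2-fold lower, with a median log2 ratio of 0.66, beside the 17.8%, 15.5% and 0.03 given above for all genes. With TPM 9 were over 2-fold higher, Ifngr1, Cd80 and Cd44 no longer being so. The 8 genes listed under antigen and invariant chain proteolysis had higher FPKM in lung, 7 of them over 2-fold, and their median was 2.42. Ctss, the cathepsin that removes the invariant chain in most presenting cells, stood at 357 FPKM in spleen and 2779 in lung. Ctsl, which does so in thymic epithelium, was at 5.42 and 123, the only gene of the list over 20-fold higher. Ctsd and Ctsh, further lysosomal cathepsins, were 10.9-fold and 6.71-fold higher in lung. Lgmn, the asparaginyl endopeptidase that opens invariant chain and antigens, was at 37.7 and 160.2 FPKM. Ifi30, the reductase that opens disulfide bonds of antigens, was at 31.7 and 91.7. Sppl2a, which clears the membrane stub of Cd74, was at 16.1 and 18.7 FPKM, a log2 ratio of 0.22 that turned below 0 with TPM. These proteases also degrade other proteins and are not particular to class II presentation.

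None of the 7 promoter-binding factors differed by 2-fold in the deposited FPKM, with a median of 0.10, but Rfxank passed it with TPM. Rfx5 and Rfxap, subunits of the RFX complex at the X box, were at 9.18 and 22.1 FPKM in spleen and 10.6 and 23.7 in lung. Rfxank, the remaining subunit, was at 10.1 and 5.64, a log2 ratio of -0.85, or -1.28 with TPM. Nfyb, a subunit of the NF-Y complex that binds the Y box, was at 28.9 and 31.3. Along the interferon-gamma route, a main inducer of Ciita, the receptor chain Ifngr1 stood at 269 FPKM in spleen and 696 in lung, while the transcription factor Irf1 was at 264 and 181. The receptor chain was thus higher in lung and Irf1 was lower, by less than 2-fold.

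Genes that act on class II at the cell surface were mostly higher in lung. March1, the ubiquitin ligase that removes class II from the surface, stood at 3.11 FPKM in spleen and 6.13 in lung, a log2 ratio of 0.98. March8, a related ligase, was at 0.260 and 1.58, and Cd83, which opposes March1, was at 134 and 211. Of the costimulatory genes of presenting cells, Cd80 was at 2.46 and 5.52 FPKM, Cd86 at 34.1 and 45.9 and Cd40 at 6.04 and 4.76, so that Cd80 alone passed 2-fold. On about 38 and 97 reads, its log2 ratio was 1.17, and with TPM it was 0.74, under 2-fold. Lag3, an inhibitory T cell receptor for class II, was at 4.62 and 1.04 FPKM, on about 86 and 22 reads, and was the only gene of the list over 2-fold lower. Mif, a ligand of Cd74, was at 460.4 and 522 FPKM, and Cd44, which signals with Cd74, was at 35 and 81.1.

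The class I route gave a comparison within the same libraries. Of its 10 genes, none was over 2-fold higher and 1 was over 2-fold lower, beside 17.8% and 15.5% of the 12094 genes. The median log2 ratio was -0.03, or -0.46 with TPM. B2m, the light chain of class I, stood at 4824 FPKM in spleen and 6623 in lung, and the heavy chain H2-K1 was at 3142 and 3072. Nlrc5, the transactivator of class I genes and a relative of Ciita, was the gene over 2-fold lower, at 39.7 FPKM in spleen and 15.5 in lung. Both transactivators were therefore lower in lung. In the deposited FPKM the 3 classical class II chains were higher, and the class I chains B2m, H2-K1 and H2-D1 differed by less than 2-fold. Of the other class II chains among the members, H2-DMb1 was higher, H2-Ob was lower and the rest were near equality.

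Markers of cells that express class II differed between the libraries beside the members. All 10 B cell markers were lower in lung, summing to 288 FPKM in spleen and 146 in lung, with a median log2 ratio of -1.07. Cd79b and Cd79a, chains of the B cell receptor, were at 90.4 and 80.4 FPKM in spleen and 59.7 and 30.4 in lung, and none of these markers was listed at 0. The marker nearest equality, Ebf1 at 2.76 and 2.70 FPKM, turned to higher when the T cell genes were set to equality. The 12 macrophage markers were all higher in lung, summing to 781 FPKM in spleen and 27547 in lung, and their median log2 ratio was 2.14, though Csf1r and Mrc1 turned to lower with TPM. Lyz2 and Chil3 were the highest of these in lung, at 24947 and 1161 FPKM against 376 and 17.4 in spleen. Lyz2 alone thus made up most of the lung sum, so the 2 sums chiefly compare Lyz2 and the median describes the list better. The 10 dendritic cell markers summed to 17.9 and 65.4 FPKM, 5 higher and 5 lower in lung. Itgax and Cd209a were at 24.1 and 15.3 FPKM in lung against 1.36 and 3.86 in spleen, whereas Clec9a, Batf3 and Clec10a, at 0.642, 3.83 and 0.224 in spleen, were listed at 0 in lung. Itgax encodes CD11c, on which the paper also gates alveolar macrophages, so it is not particular to dendritic cells. Of 7 alveolar type 2 markers, 5 were over 2-fold higher in lung, the highest being Sftpc at 94.8 FPKM, and Abca3 was lower, at 7.47 and 4.73. Sftpc, Sftpb, Sftpd and Lamp3 were listed at 0 in spleen, and Lamp3 was also under the floor in lung, at 0.0271 FPKM on about 1 read. The part of these cells in the class II values was not tested. In pooled bulk RNA, fewer cells of a type and less RNA per cell cannot be told apart.

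**Figure D4:**
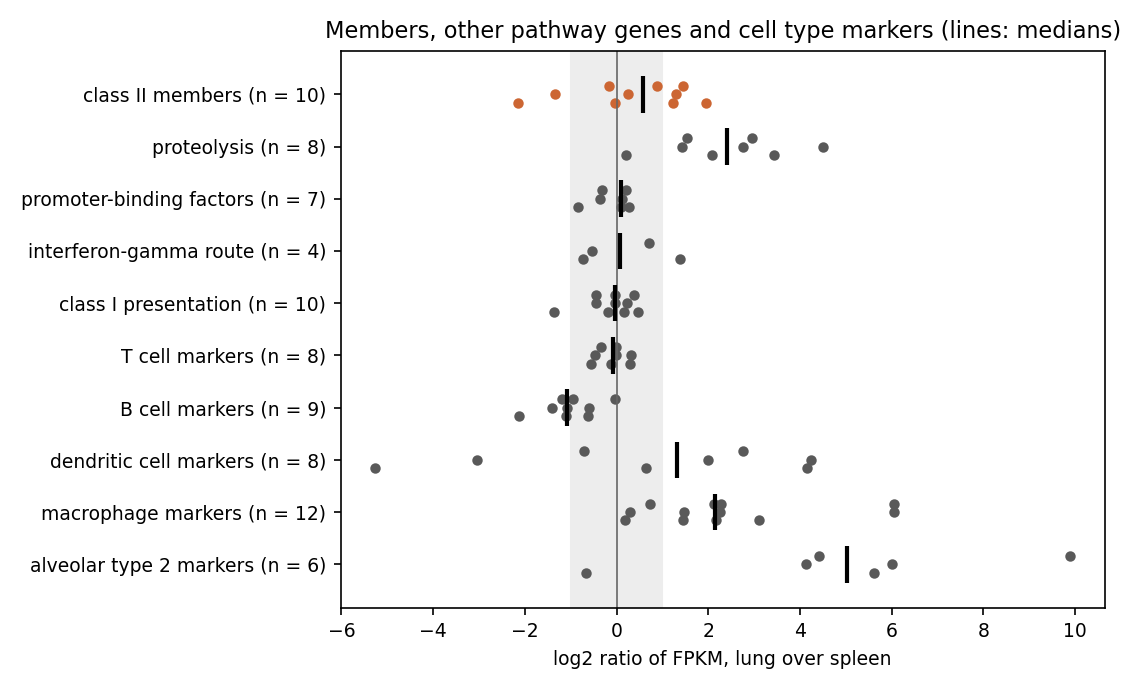
Log2 ratio of lung over spleen FPKM for single genes (points) that reached 1 FPKM in either library, by list, with a line at each median and the range within 2-fold shaded. In the deposited FPKM the class II members spread from -2.14 to 1.94, the proteolysis genes and macrophage markers lie above 0, the B cell markers lie below 0, and class I and T cell genes centre on 0.

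The 8 T cell markers ranged from 91.9 to 902 FPKM in spleen and from 114 to 1103 in lung. All 3 classical chains lay within that range in spleen. In lung H2-Aa and H2-Eb1 lay within it and H2-Ab1 lay above it. H2-Ab1, at 486 and 1195 FPKM, was above Cd4 in both libraries, but in spleen it was below Cd3e, at 513. H2-Eb1, at 120.0 FPKM in spleen, was below Cd4 there, at 195. Cd74, the invariant chain, was above Cd3g, the highest T cell marker, at 902 FPKM in spleen and 1103 in lung. These levels come from a sort for CD4 and the Foxp3 reporter, and they do not say which cells the transcripts came from.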

How the data were processed

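GFP+CD4+ cells of spleen and lung were profiled, 1 pooled library per tissue. The values are FPKM deposited by the authors. Per the submitters' processing notes and the methods, single-end reads of 75 bases were aligned to mm10, the tools being TopHat2 2.1.1, Bowtie2 2.2.8, SAMtools 0.1.18 and, for FPKM, Cuffdiff 2.2.1. The annotation, the handling of shared reads and any scaling between libraries are not given in the sources used here. Such scaling can shift all ratios together.

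Samples were grouped by their tissue label. Ratios were taken after a floor of 0.1 FPKM. Genes of at least 1 FPKM in either library entered medians and counts past 2-fold. Reads were estimated from FPKM, effective lengths of GENCODE M21 transcripts tied to RefSeq (fragments of 200 ± 80 bases, none under 75) and the value of 1 read, the commonest product of FPKM and effective length (0.0964 FPKM in spleen and 0.0849 in lung at 1 kb). With it, 73.3% and 75.6% of low values came within 0.1 of whole reads. Intervals are exact binomial (95%). Genes were named from lists of members, pathway, class I route and cell markers, and of each marker list the highest genes and those at 0. The members and lists were chosen with earlier results of these data known. The ratio, the 2-fold calls and a list median were tested on simulated data for genes of higher level only. The read estimates, the intervals and the promoter search were not tested this way. Alternatives were floors, pseudocounts, scalings and filters. The tools were Python 3.11.15, pandas 2.3.3, numpy 2.4.6, matplotlib 3.10.9 and scipy 1.17.1.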

Additional observations from a re-analysis of the deposited data

How the results depend on the processing

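Rescaling to TPM shifted all log2 ratios by -0.43 and moved the split of genes past 2-fold from 2149 higher and 1872 lower to 1670 higher and 3458 lower. With TPM the median log2 ratio was 0.14 for the members, 0.22 for the pathway list and -0.46 for the class I list, 2 members were over 2-fold higher, and 9 pathway genes were over 2-fold higher and 3 over 2-fold lower, Rfxank among them. With the T cell genes set to a median ratio of 1, chosen after seeing the data, these medians were 0.64, 0.73 and 0.042. Equal upper quartiles gave -0.086 for class I. Without the filter on low values the pathway median was 0.54, and that of the dendritic cell markers turned from 1.31 to -0.034. The floor moved the median of the alveolar type 2 markers, mostly at or near 0 in spleen, from 5.02 to 1.70 at 1 FPKM and 7.25 at 0.01 FPKM, and a pseudocount of 1 FPKM moved Ciita from -2.14 to -1.39. With H2-DMb1 and H2-DMb2 summed the member median was 0.89. Without small RNA symbols in the sum, the members took 0.435% in spleen and 0.652% in lung. Of 76 recomputed medians, counts and shares of the members, the pathway and class I, 63 lay within the counting interval of the reported value or within 1.5 times the reported count. Of 156 others, for single members, ratios within a library and marker lists, 129 did, 26 lay outside and the dendritic median was reversed. Many of these recomputed values could not differ, since a floor or filter leaves genes above it unchanged. The numbers that agreed are therefore no measure of robustness. TPM, which shifts all ratios, moved the medians of the members, the pathway and class I out of their intervals. H2-Aa and H2-DMb1 stayed over 2-fold higher, and H2-Ob and Ciita over 2-fold lower, in all 10 settings. No paired analysis was possible because each tissue has 1 library. Without replicates, differences between mice, sorts and libraries cannot be told from differences between tissues.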

Other observations

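The nonclassical class I genes of the same chromosome, named after their values were seen, were mostly a little lower in lung. Of 9 H2-Q genes, 8 reached 1 FPKM, 7 of them lower in lung, with a median log2 ratio of -0.41. H2-Q9 and H2-Q7, which are close copies of other H2-Q genes and may share reads with them, were at 530 and 397 FPKM in spleen and 487 and 316 in lung. H2-T23, which encodes Qa-1, the ligand of NKG2A, was the H2-T gene that was higher in lung, at 440.3 FPKM in spleen and 551 in lung. Among 12 H2-M genes, 10 were listed at 0 in both libraries. H2-M3, which presents formylated peptides, was at 83.2 and 72.4 FPKM, whereas H2-M2 was at 1.97 and 19.9, 10.1-fold higher in lung. With TPM, these ratios would be lower by the shift of 0.43 that applies to all genes, and no replicate bears on them.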
